A study of Homo sapiens with 6 samples.

Results

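Long noncoding RNAs, several of them usually abundant in human cells, were followed in MG63, a cell line from a human osteosarcoma. Cells with and without a stable short hairpin against FTO were compared. The genes were chosen by name: MALAT1, NEAT1, NORAD, TUG1, OIP5-AS1, KCNQ1OT1, GAS5, SNHG1, H19 and MEG3, which are 10 of the 61806 genes listed and were all found. Poly(A) RNA was sequenced from 3 libraries with the FTO hairpin (shFTO) and 3 with a control hairpin (shNC), described as independent biological replicates. No treatment, allele or time point separates the groups, and whether each group came from 1 clone or carried 1 hairpin is not given in the sources used here. Levels are given as FPKM, reads scaled to exonic length and library size, and each value could be turned back into whole reads at a library total found from the values. Read counts, limits and intervals rest on the smallest total that gave whole reads, since a whole multiple of it can do so too.

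Several of these RNAs are usually abundant in human cells. Together the genes followed here had 85 reads of 592760, or 14.3 of every 100000. Reads were few for most genes, with a median of 4 over the 7057 genes with reads. NEAT1, TUG1, NORAD and OIP5-AS1 had 25, 21, 17 and 12 reads over the 6 libraries, GAS5 had 6, MALAT1 had 3 and SNHG1 had 1. KCNQ1OT1, H19 and MEG3 had no read in any library. The comparison of shFTO with shNC called none of them.

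Long noncoding RNAs are transcribed by RNA polymerase II like messenger RNAs and act as RNA. MALAT1 and NEAT1 stay in the nucleus, where MALAT1 lies in nuclear speckles, stores of splicing factors, and NEAT1 is the scaffold of paraspeckles. NORAD is cytoplasmic and binds Pumilio proteins, which repress messenger RNAs. TUG1 and OIP5-AS1 are broadly expressed, GAS5 and SNHG1 carry small nucleolar RNAs in their introns, and KCNQ1OT1, H19 and MEG3 are imprinted. FTO, the targeted gene, removes the methyl group from N6-methyladenosine, a mark that several of these RNAs are known to carry.

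The sequences below show features for which 3 of these RNAs are known, as GENCODE release 29 gives their longest transcripts on GRCh38, the build of the deposited table. MALAT1 and NEAT1 are known to end not in a poly(A) tail but in a folded A-rich tract that pairs with U-rich stretches before it, and the libraries were made by oligo(dT) selection. Each of the following runs holds 91 bases up to the end of that tract, which is in capitals, with the U-rich stretches in lower case before it.
MALAT1: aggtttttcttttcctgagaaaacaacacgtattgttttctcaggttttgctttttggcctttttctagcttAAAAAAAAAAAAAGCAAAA
NEAT1: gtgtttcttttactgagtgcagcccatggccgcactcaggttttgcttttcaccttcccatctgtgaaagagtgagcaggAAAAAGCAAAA
The MALAT1 run lies on the plus strand at chr11:65506026-65506116 and the NEAT1 run on the plus strand at chr11:65445450-65445540, where the annotated NEAT1-202 transcript ends. The capitals of the NEAT1 run also close the MALAT1 run. Searched on the transcript strand, these letters are held by 0.598% of the longest transcripts of all genes and, once, by KCNQ1OT1. MALAT1 held them 2 times, and its run shows the last of these matches.

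NORAD is known for repeats of the Pumilio element, in DNA letters TGTA, then any base, then ATA. Its transcript of 5339 bases held 15 matches on the transcript strand, or 2.81 per kilobase against 0.11 per kilobase over the longest transcripts of all genes. Of 2130 such transcripts within 10% of its length, 0.141% held as many, and their median was 0. In 10 of the 15 matches the letters after TGTA were TATA, in 4 AATA and in 1 CATA. The next 4 windows, all on the minus strand of chromosome 20, show the match in capitals with 10 bases on each side.
NORAD chr20:36050183-36050210: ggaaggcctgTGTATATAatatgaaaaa
NORAD chr20:36049703-36049730: aatcacatttTGTAAATAcctttttgtt
NORAD chr20:36049493-36049520: gtgtatatagTGTACATAaaggacagac
NORAD chr20:36047972-36047999: aaccctactgTGTATATAgcggacaaac
Among the other transcripts NEAT1 had 6 matches, KCNQ1OT1 had 9, TUG1 had 2, OIP5-AS1, SNHG1 and MEG3 had 1 each, and MALAT1, GAS5 and H19 had none.

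GGACT, a common sequence context of N6-methyladenosine, was also counted on the transcript strand. MALAT1 held 13 matches in 8708 bases, 1.49 per kilobase, and 7.53% of transcripts of like length held as many. NORAD held 2, 0.375 per kilobase, against 0.98 per kilobase over the longest transcripts of all genes. A match says nothing on whether a site was methylated in these cells, which was not measured. The longest annotated transcripts of MALAT1, NEAT1, NORAD and KCNQ1OT1 have a single exon, while those of the other genes have 3 to 8. GC content ran from 38.4% in OIP5-AS1 to 63.4% in H19, with a median of 46.9% over all genes.

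Recovered totals ran from 94083 to 106245 reads in shFTO libraries and from 93629 to 100992 in shNC libraries. FTO (ENSG00000140718) was listed at 0 FPKM in all 6 libraries, so the knockdown could not be checked, and a count of 0 allows up to 0.462 FPKM over the shFTO libraries and 0.486 FPKM over the shNC libraries. Of 13 mesenchymal and bone markers 9 had reads, with 102 to 113 reads per shFTO library and 75 to 107 per shNC library, while ALPL, BGLAP, SP7 and SPP1 were at 0. Of 4 blood markers none had reads, 2 of 5 epithelial markers had 8 reads, and 3 endothelial and 3 neural markers had 1 read each in all. Protein-coding genes held 98.0% of all reads and 14745 long noncoding genes 0.181%. In bulk RNA, fewer cells with a transcript and less of it per cell cannot be told apart.

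NEAT1, the paraspeckle scaffold (ENSG00000245532, GRCh38 chromosome 11, 65422774 to 65445540, plus strand), was the most-read of these genes. It had 2.48, 2.8 and 1.7 FPKM in shFTO replicates 1, 2 and 3, against 1.86, 0.87 and 1.41 FPKM in shNC replicates 1, 2 and 3. The shFTO libraries held 6, 6 and 4 reads and the shNC libraries 4, 2 and 3. All 6 libraries had reads, and the groups overlapped, since shNC replicate 1 lay above shFTO replicate 3. The means were 2.33 ± 0.566 FPKM in shFTO and 1.38 ± 0.496 in shNC (SD, n = 3 each; exact two-sided permutation p = 0.2, where 3 against 3 allows no less than 0.1). In limma, a linear model fitted to log2(FPKM + 1) over all tested genes, the log2 fold change was 0.49 (SE 1.02, adjusted p = 0.9). Scaled to library size, NEAT1 reads in shFTO over those in shNC gave a ratio of 1.69 (exact 95% interval 0.704 to 4.34). Such intervals cover counting error only, so a 2-fold rise, like no change, lies within what these reads allow.

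MALAT1, the nuclear speckle RNA (ENSG00000251562, chromosome 11, 65497688 to 65506516, plus strand), had 0 FPKM in all 3 shFTO libraries, against 3.6 FPKM in shNC replicate 1 and 0 in shNC replicates 2 and 3. All of its 3 reads came from that 1 shNC library, and without it MALAT1 was at 0 throughout. A count of 0 in the shFTO libraries together allows up to 1.12 FPKM, and over the shNC libraries 3 reads amount to 1.18 FPKM. With both groups at or under 3 reads no fold change is given, and limma did not call MALAT1 (adjusted p = 0.772). A single read of MALAT1 was worth 1.07 to 1.21 FPKM, depending on the library.

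**Figure D1:**
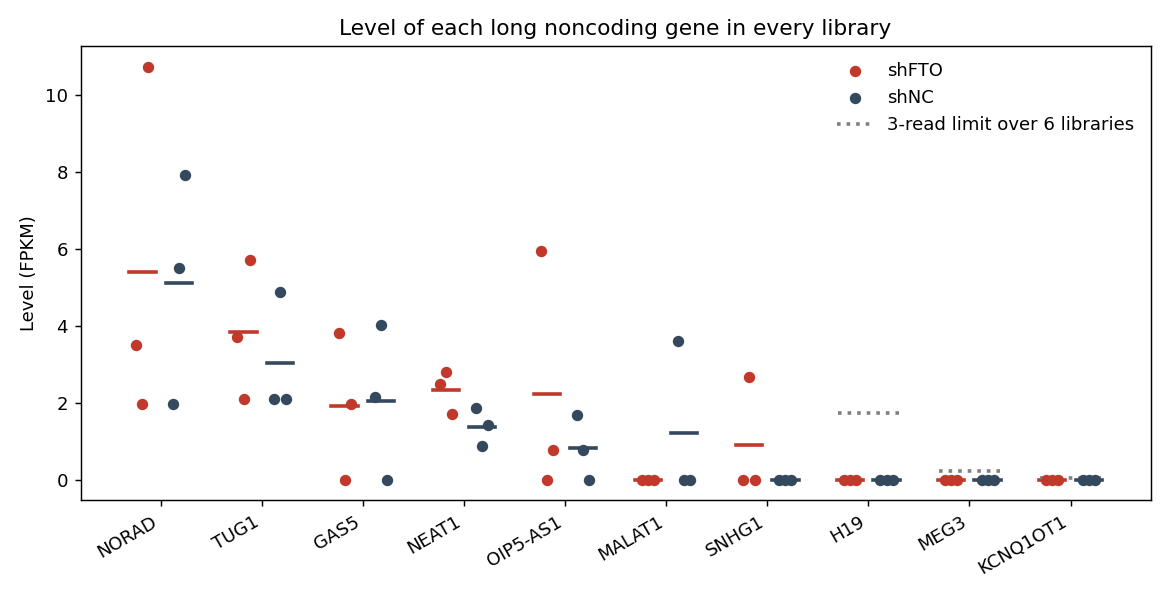
Level in FPKM (vertical axis) of each gene in every library, with shFTO (red, left) and shNC (dark, right) as points and short bars at the group means, n = 3 each. Points of the groups overlap for each of the 7 genes with reads, NORAD reaches 10.74 FPKM in shFTO replicate 3, and the dotted lines mark the level that 3 reads over all 6 libraries would give for H19, MEG3 and KCNQ1OT1, which are at 0.

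NORAD, the Pumilio-binding RNA whose repeats are shown above (ENSG00000260032, chromosome 20, 36045618 to 36051018, minus strand), had the highest mean level. It had 3.49, 1.97 and 10.74 FPKM in shFTO replicates 1, 2 and 3, from 2, 1 and 6 reads. The shNC replicates 1, 2 and 3 had 1.96, 5.5 and 7.91 FPKM, from 1, 3 and 4 reads. Each group held a library with 1 read, and the spread within groups was wider than the difference between them. Means were 5.4 ± 4.69 FPKM in shFTO and 5.12 ± 2.99 in shNC (SD, n = 3 each; exact permutation p = 0.9), with a limma log2 fold change of -0.04 (SE 0.85, adjusted p = 1). The read ratio was 1.07 (exact 95% interval 0.366 to 3.19), and without shFTO replicate 3, which held 6 of the 9 shFTO reads, it was 0.541. The fitted change turned positive in 6 of 13 alternative settings, so it has no settled direction.

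TUG1, a broadly expressed RNA transcribed from a bidirectional promoter per GENCODE (ENSG00000253352, chromosome 22, 30969245 to 30979395, plus strand), had 3.71, 2.09 and 5.71 FPKM in shFTO replicates 1, 2 and 3 and 2.09, 4.88 and 2.1 FPKM in shNC replicates 1, 2 and 3. These were 4, 2 and 6 reads in shFTO and 2, 5 and 2 reads in shNC, with the lowest library of each group at the same 2 reads. Means were 3.84 ± 1.81 FPKM in shFTO and 3.02 ± 1.61 in shNC (SD, n = 3 each; exact permutation p = 0.7). The limma log2 fold change was 0.26 (SE 0.92, adjusted p = 0.952), and the read ratio was 1.27 (exact 95% interval 0.49 to 3.41). Without shFTO replicate 3 the log2 fold change was -0.0069.

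OIP5-AS1, an RNA transcribed opposite to OIP5 and known to bind the RNA-stabilizing protein ELAVL1 (ENSG00000247556, chromosome 15, 41283990 to 41309737, plus strand), was uneven between libraries. It had 5.94, 0 and 0.76 FPKM in shFTO replicates 1, 2 and 3 and 1.67, 0.78 and 0 FPKM in shNC replicates 1, 2 and 3. Of its 9 shFTO reads 8 lay in shFTO replicate 1, against 3 reads over the shNC libraries, and each group had a library at 0. Means were 2.23 ± 3.23 FPKM in shFTO and 0.817 ± 0.836 in shNC (SD, n = 3 each; exact permutation p = 0.9), and the limma log2 fold change was 0.45 (SE 1.05, adjusted p = 0.913). The read ratio of 2.85 (exact 95% interval 0.712 to 16.4) rested on shFTO replicate 1: without it, 1 read stood against 3, a ratio of 0.488 (exact 95% interval 0.00929 to 6.07). That direction thus turns with 1 library. Leaving out other libraries moved the ratio to 5.77 without shNC replicate 1 and to 1.93 without shNC replicate 3.

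GAS5, a small nucleolar RNA host named for its rise in growth-arrested cells (ENSG00000234741, chromosome 1, 173858559 to 173868882, minus strand), had 3.82, 0 and 1.96 FPKM in shFTO replicates 1, 2 and 3 and 2.15, 4.02 and 0 FPKM in shNC replicates 1, 2 and 3. Each group held 3 reads and a library at 0, and limma did not call it (adjusted p = 1). SNHG1, another small nucleolar RNA host (ENSG00000255717, chromosome 11, 62851978 to 62855953, minus strand), had 1 read, worth 2.67 FPKM, in shFTO replicate 2 and 0 in the other shFTO libraries and in all 3 shNC libraries. SNHG1 fell under the filter of a mean of at least 1 FPKM in a group and was not tested. No fold change is given for either, since neither group passed 3 reads.

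**Figure D2:**
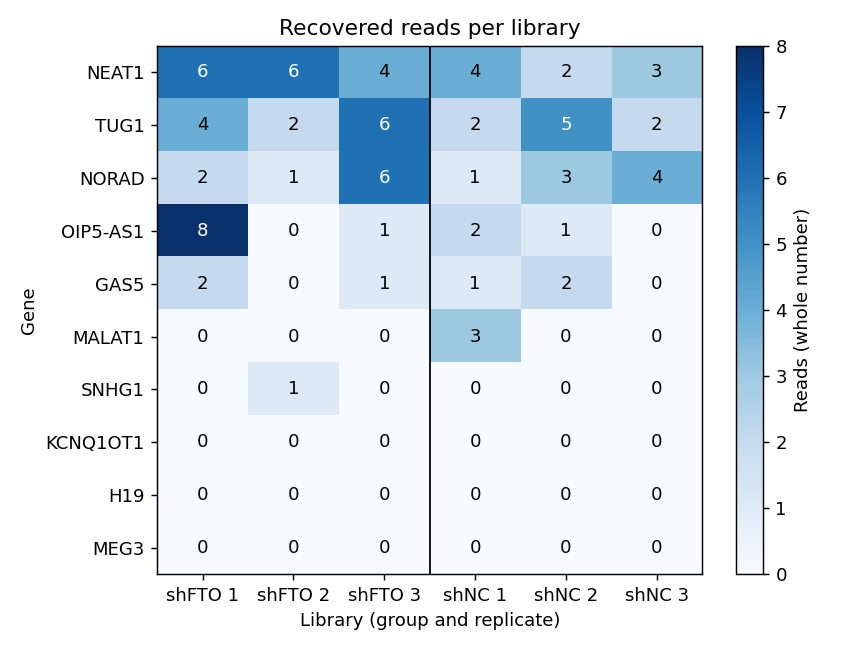
Recovered whole reads of each gene (rows, most-read on top) in each library (columns, shFTO left of shNC), with darker blue for more reads. No cell passes 8 reads, the value of OIP5-AS1 in shFTO replicate 1, and the 3 reads of MALAT1 lie in shNC replicate 1.

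The imprinted RNAs had no reads. H19, an RNA of fetal and placental tissue (ENSG00000130600, chromosome 11, 1995166 to 2001470, minus strand), was listed at 0 FPKM in every library, and a count of 0 allows up to 1.74 FPKM over all 6 libraries, or 3.39 FPKM in shFTO and 3.56 FPKM in shNC. For MEG3, expressed from the maternal allele at its own imprinted locus (ENSG00000214548, chromosome 14, 100779410 to 100861031, plus strand), the limit was 0.218 FPKM over all 6 libraries. For KCNQ1OT1, which silences neighbouring genes on the paternal chromosome (ENSG00000269821, chromosome 11, 2608328 to 2699994, minus strand), it was 0.0552 FPKM, because 91667 bases of exonic length divide its reads. Listed genes near these RNAs, not all of them imprinted, had few reads. Of 15 such genes, NAP1L4, which encodes a nucleosome assembly protein, had 3 reads and CD81, which encodes a membrane tetraspanin, had 2. The other 13, IGF2, CDKN1C and DLK1 among them, had none. These limits show what this depth could miss, not that the RNAs are absent.

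No read was counted for a gene that overlaps them. The spans of 9 of the 10 genes overlap 41 other listed genes, 16 of them on the opposite strand, among them TALAM1 across MALAT1, OIP5 across OIP5-AS1 and KCNQ1 across KCNQ1OT1, and all 41 were at 0 reads. The small nucleolar RNA genes in the introns of SNHG1 were among them. How reads shared by overlapping genes were counted was not tested. The zeros thus do not show whether reads of the 10 genes were left out.

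Of the 10 genes, 6 passed the filter of a mean of at least 1 FPKM in a group and entered the test, and 0 of the 6 were called at an adjusted p under 0.05, against a background of 0.0406% over 4932 tested genes. At an unadjusted p under 0.05 it was also 0 of 6, with a background of 3.85%. The groups did not overlap for 0 of the 6, with a background of 6.59%. Among the 6, 3 estimates were above 0 and 3 below, with a median log2 fold change of 0.11. Over all tested genes the median was 0.004, and 50.4% were above 0. MALAT1 reached a mean of 1 FPKM only in shNC and OIP5-AS1 only in shFTO. The filter thus tied the direction of both, and the tally is a description only. At these read numbers the test could have missed changes of several fold, as the intervals above show. Summed over the 10 genes, the libraries held 22, 10 and 18 reads in shFTO replicates 1, 2 and 3 and 13, 13 and 9 reads in shNC replicates 1, 2 and 3. Scaled to 100000 reads this was 16.2 ± 5.14 in shFTO and 12.1 ± 2.19 in shNC (SD, n = 3 each), with overlapping groups.

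**Figure D3:**
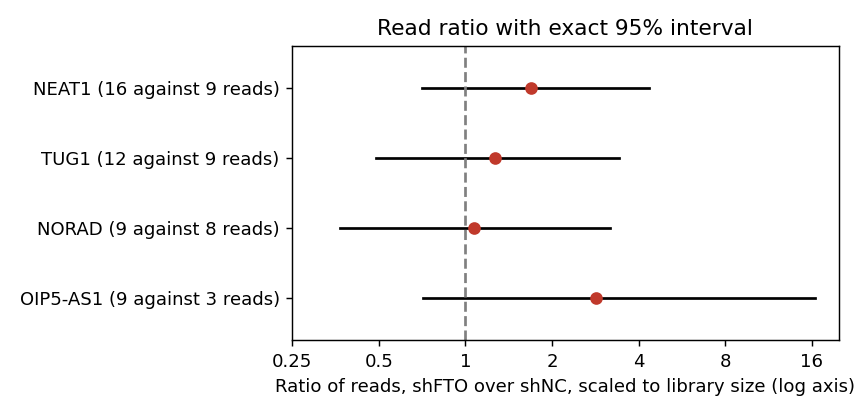
Ratio of reads in shFTO over shNC, scaled to library size, on a log axis, for the 4 genes with more than 3 reads in a group; points are the ratios and lines their exact 95% intervals, which cover counting error only. Every line crosses 1 (dashed), and they reach from 0.366 for NORAD to 16.4 for OIP5-AS1.

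The order of the mean level over all 6 libraries was NORAD at 5.26 FPKM, TUG1 at 3.43, GAS5 at 1.99, NEAT1 at 1.85, OIP5-AS1 at 1.52, MALAT1 at 0.6 and SNHG1 at 0.445. In none of the 6 pairs of neighbours in this order did the levels differ beyond their spread over the libraries. An exact two-sided sign-flip test over the 6 libraries gave p values from 0.125, for TUG1 against GAS5, to 1, with adjusted p values of at least 0.75 over the 6 pairs. With 6 libraries this test allows no p under 0.03125, and sorting the same values made these pairs neighbours. The lack of a difference between neighbours is therefore a description only. The order also depended on the length used as divisor. The deposited exonic length joins all annotated exons, 4932 bases for GAS5, while its longest GENCODE 29 transcript has 1698 bases. Per kilobase of the longest transcript and summed over the libraries, GAS5 stood at 5.96, NORAD at 5.37 and TUG1 at 4.74 FPKM, so GAS5 moved to the top.

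**Figure D4:**
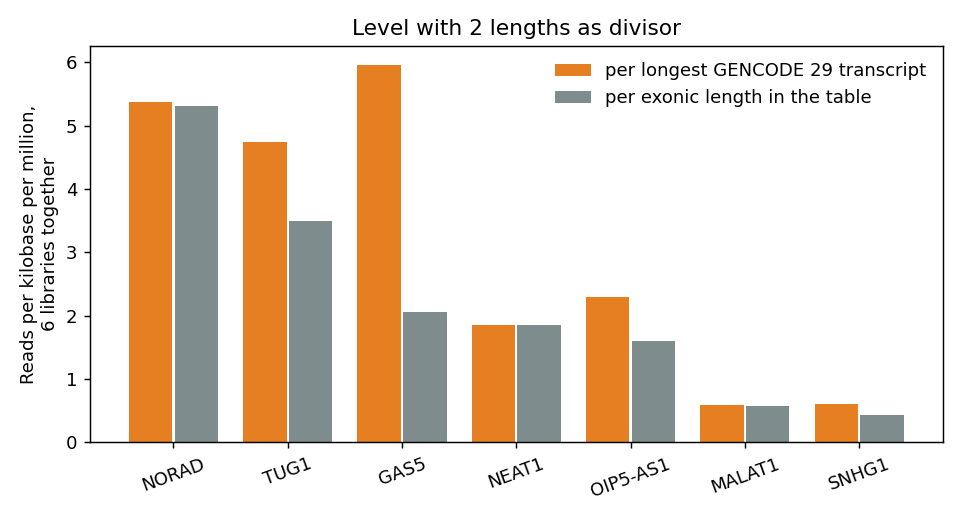
Level in FPKM over the 6 libraries together for the 7 genes with reads, divided by the longest GENCODE 29 transcript (orange, left) and by the exonic length of the deposited table (grey, right); bars start at 0 and carry no error. GAS5 stands at 5.96 on the longest transcript and 2.05 on the deposited length. NEAT1 and MALAT1 barely move, because their 2 lengths are nearly equal, 22743 and 22767 bases for NEAT1. A shorter form of NEAT1 was not used as divisor.

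In the ranking of all 7057 genes with reads, 1129 genes had more reads than NEAT1, 1378 more than NORAD and 3560 more than MALAT1. NEAT1, TUG1, NORAD and OIP5-AS1 had more reads than 83.7%, 82.0%, 79.9% and 75.4% of the genes with reads, and MALAT1 more than 39.4%. The median of the genes with reads was 4 reads. By mean FPKM, 1508 genes lay above NORAD, 2762 above NEAT1 and 4895 above MALAT1. Of 14745 long noncoding genes 10 had at least 10 reads, 4 of them described here. Among the 171 long noncoding genes with reads, NEAT1, TUG1, NORAD and OIP5-AS1 took ranks 5, 6, 7 and 9, GAS5 took rank 14, MALAT1 rank 30 and SNHG1 rank 83, while KCNQ1OT1, H19 and MEG3 were below them all at 0. The 10 genes held 7.94% of the 1070 reads of all long noncoding genes. Above NEAT1 stood ENSG00000281181 (chromosome 21, 8437629 to 8438551) with 282 reads, HNRNPK-AS1 with 192, HOXA11-AS with 146 and ENSG00000272691 with 39. Without ENSG00000281181, long noncoding genes held 788 reads instead of 1070, and the source of its reads was not tested. HNRNPK-AS1 overlaps HNRNPK, with 4383 reads on the opposite strand, and the strand setting of the counting is not given in the sources used here, so its reads, and in the same way those of other antisense genes, are uncertain. HOXA11-AS, antisense to the homeobox gene HOXA11, had 69.0 ± 15.9 FPKM in shFTO and 89.9 ± 11.3 in shNC (SD, n = 3 each), a limma log2 fold change of -0.40 (SE 0.25, adjusted p = 0.772). HOXA11 itself had 0 reads in shFTO and 2 in shNC.

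**Figure D5:**
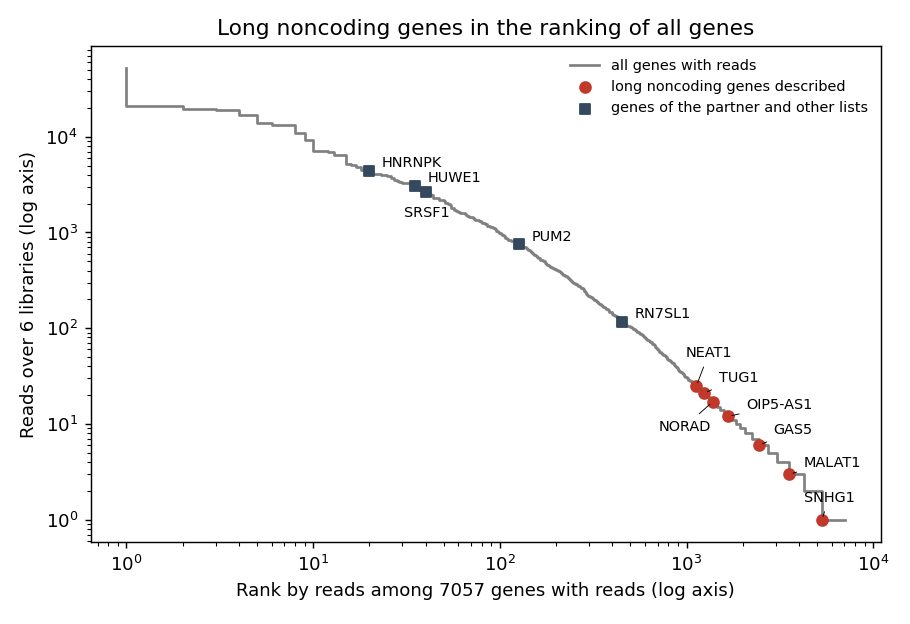
Reads over all 6 libraries (vertical, log axis) against rank among the 7057 genes with reads (horizontal, log axis), with all genes as a grey line, the 7 described genes that had reads as red points and 5 genes from the lists of partners and other RNAs as dark squares. NEAT1, the highest red point, has 25 reads, while PUM2 has 751 and HNRNPK 4383.

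The genes of proteins that work with these RNAs ranged widely in reads, with METTL16 at 1 and HNRNPK at 4383 among those with any. All 15 listed genes of nuclear speckles and of MALAT1 binding had reads, 11589 in all, and of the 14 tested limma called 0 higher and 0 lower. SRSF1, a splicing factor, had 760 ± 67.7 FPKM in shFTO and 786 ± 21.1 in shNC. SRSF6 had 768.5 ± 75.5 and SRSF2 975 ± 76.8 FPKM in shFTO, against 726 ± 16.2 and 839 ± 48.3 FPKM in shNC. The list's median log2 fold change was 0.05. An unadjusted p under 0.05 in limma was found for 3 of the 63 tested genes of all lists, beside 3.85% of all tested genes. They were SRSF2 (log2 fold change 0.22), SON, a speckle scaffold protein gene (0.40), and SRRM1, a splicing coactivator gene (1.01), each at an adjusted p of 0.772. METTL16, which binds the end of MALAT1, had 1 read.

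Of 18 paraspeckle protein genes 17 had reads, 16 were tested and 0 were called in limma, with 8 estimates above 0, 8 below and a median log2 fold change of -0.03. SFPQ and NONO, the core proteins that NEAT1 assembles, had 374 and 165 reads. In mean FPKM the level of SFPQ was 44.1 times that of NEAT1, whose reads were divided by 22767 bases of exonic length. HNRNPK, an RNA-binding protein gene with processed pseudogenes that could share its reads, had 1450.5 ± 75.6 FPKM in shFTO and 1449 ± 74.7 in shNC. EWSR1 had 197 ± 23.9 FPKM in shFTO and 184 ± 3.31 in shNC, and TARDBP had 216 ± 28.2 in shFTO and 210 ± 20 in shNC.

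Among partners of NORAD, PUM2, a Pumilio protein gene, had 751 reads, at 177 ± 19.1 FPKM in shFTO and 186 ± 26.3 in shNC (SD, n = 3 each; limma log2 fold change -0.07, adjusted p = 0.927). RBMX, an RNA-binding protein reported to bind NORAD, had 22.2 ± 10.4 FPKM in shFTO and 30.9 ± 12.1 in shNC (limma adjusted p = 0.772). Of the 9 listed genes all had reads, 8 were tested and 0 were called in limma, with 4 estimates above 0, 4 below and a median log2 fold change of -0.03.

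For OIP5-AS1, TUG1 and H19, 9 of 10 partner or neighbour genes had reads, 8 were tested and 0 were called in limma, with 6 estimates above 0, 2 below and a median log2 fold change of 0.13. HUWE1, a ubiquitin ligase gene, held 3082 of their 3491 reads, at 306 ± 16.1 FPKM in shFTO and 292 ± 36 in shNC. SUZ12 and EED, subunits of the Polycomb complex that methylates histone H3, had 42.2 ± 7.59 and 38.1 ± 3.46 FPKM in shFTO, against 40.2 ± 5.09 and 30.4 ± 3.59 FPKM in shNC. All 3 shFTO libraries lay above all 3 shNC libraries for EED, which limma did not call (adjusted p = 0.772). Groups did not overlap, in either direction, for 6.59% of all tested genes. Other listed genes were separated too, among them SON and, in the other direction, PSPC1. ELAVL1 had 5 reads. Factors of nonsense-mediated decay, which degrades spliced GAS5, had 685 reads, with 9 of 12 genes tested and 0 called. SMG1, its kinase, which has near-identical partial copies on chromosome 16 that make its reads uncertain, had 23.1 ± 4.99 FPKM in shFTO and 25.5 ± 2.43 in shNC, and the core factor UPF2 had 24.9 ± 6.97 in shFTO and 28.7 ± 6.04 in shNC.

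Other noncoding RNAs were counted from lists too. Of 21 other host genes of small RNAs 11 had reads, 30 in all (12 in shFTO and 18 in shNC), with SNHG3 the most-read at 7, 5 tested and 0 called. Of 27 further long noncoding genes 8 had reads, 13 in all (9 in shFTO and 4 in shNC), with FGD5-AS1 the most-read at 3, 3 tested and 0 called. Among 11 RNAs without a poly(A) tail, RN7SL1, the RNA of the signal recognition particle, had 117 reads at 629 ± 120 FPKM in shFTO and 702 ± 332 in shNC, uncertain because near-identical copies could share them. The other 10, RN7SK and RMRP among them, were at 0. The short form of NEAT1 is known to carry a poly(A) tail, and the table gives 1 value for both forms. The part of poly(A) selection in the low values of MALAT1 and NEAT1 was not tested. NORAD, GAS5 and SNHG1, whose RNAs carry a poly(A) tail, had 17, 6 and 1 reads, and TUG1 and OIP5-AS1 had 21 and 12. Reads per gene also depend on length and expression, so these numbers cannot show the part of selection.

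Over the 6 libraries, the genes most like NEAT1 among 150 with a mean of at least 100 reads per library were NDEL1, SON and HNRNPU, with Pearson's r of log2(FPKM + 1) of 0.857, 0.852 and 0.847. Those most like TUG1 were RPS6KB1, PFN2 and GNAS, at 0.867, 0.839 and 0.839. These are descriptions over 6 points that share libraries, in which NEAT1 and TUG1 had 2 to 6 reads each.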

How the data were processed

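The authors deposited a table of FPKM per gene for 6 libraries, rounded to 2 decimals, with exonic length, position and strand. The submitters' processing notes list the aligner HISAT2 2.2.1, the counter HTSeq 0.6.1, StringTie 1.3.3b, DESeq2 1.50.2 and, for read quality, FastQC 0.10.1, on GRCh38. Their order and strand setting were not given in the sources used here. Columns named NC and sh were matched to shNC and shFTO replicates by number. Library totals between 20000 and 200000 were searched for whole reads, and at the totals used 100% of values above 0 were whole within 0.05 read. For shFTO replicate 2 and shNC replicate 3 a total of 188166 and 187258 did as well, and the smaller total, 94083 and 93629, was used. Whether the table comes from all reads of a library is not given in the sources used here. Library pairs of a group differed by more than sampling noise in chi-square tests.

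Groups were compared with limma 3.58.1 in R 4.3.3 (trend, robust) on log2(FPKM + 1), keeping genes whose mean reached 1 FPKM in either group, with Benjamini-Hochberg adjustment over all 4932; fold changes on this scale understate changes of genes near 1 FPKM. Calls needed an adjusted p under 0.05. Permutation tests and exact binomial intervals used SciPy 1.17.1 in Python 3.11.15. A count of 0 was given a limit of 3 reads. The fits were tested on simulated data, with changes only in genes of at least 10 reads per library on average. None of the 10 genes reached that mean, so the simulation does not cover them. Gene types and transcripts came from GENCODE 29, which holds 94.3% of gene IDs. The genes and lists were chosen with earlier results of these data known. All 10 genes are named; of each list, called genes and up to 3 of the most-read with at least 10 reads; genes overlapping them with reads; up to 5 long noncoding genes above NEAT1; and for NEAT1 and TUG1 the 3 genes of highest r. Some genes that this rule names are not reported here. Others (among them SFPQ, SON, SRRM1, HOXA11, NONO, METTL16, ELAVL1, NAP1L4, CD81, SNHG3 and FGD5-AS1) were chosen after their values were seen. Alternatives were another pseudocount, other filters, scalings and fits, a replicate block, each library left out and, chosen after seeing the data, another length.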

Additional observations from a re-analysis of the deposited data

How the results depend on the processing

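None of the 10 genes was called in any alternative in which at least 1 of them was tested. Requiring a mean of at least 10 reads per library left none of them, so no value could be had there. Over all genes, the 2 calls became 7 with a pseudocount of 0.1, 9 without a filter and 5 in limma-voom on recovered reads. They became 0 of 705 with a mean of at least 10 reads per library, where limma gave 31 at an unadjusted p under 0.05. A quasi-Poisson fit to genes with at least 10 reads in all called 0 of 1932, with 119 at an unadjusted p under 0.05. Upper-quartile scaling gave 4 calls. Leaving out each library gave 2 to 9 calls, with 9 without shNC replicate 2, 7 without shNC replicate 3 and 8 without shFTO replicate 1. Samples with the same replicate number did not deviate together (r from -0.012 to 0.039 over 705 genes, and 2 of 6 libraries correlated best with their own number). A replicate block gave 17 calls and called none of the 10 genes.

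The log2 fold change of NORAD, -0.04, was 0.0883 in the quasi-Poisson fit and 0.05 with upper-quartile scaling, where the median of all genes was 0.12, so relative to it NORAD was at -0.07. Leaving out each library gave -0.61 to 0.39. TUG1 ran from -0.0069 to 0.57 on leaving out each library, NEAT1 from 0.33 to 0.63 and OIP5-AS1 from 0.08 to 1.06; without shFTO replicate 1 OIP5-AS1 fell under the filter. Over the 13 settings NEAT1 stayed above 0, as did OIP5-AS1 over its 12. The cause of these shifts was not tested. At 0 to 8 reads per library, depth limits every value here.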
